A study of Rattus norvegicus with 24 samples.

Results

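The carriers described here are the organic anion transporting polypeptides (Slco), the bile acid and steroid sulfate family Slc10, the peptide family Slc15, the organic anion, cation and carnitine family Slc22 and the multidrug extrusion family Slc47. Members were all genes whose current symbol carries the name of one of these families followed by a number and that are held by a transcript cluster with a single gene symbol. This gave 44 genes on 44 transcript clusters, of 18166 genes in all. They comprise 13 Slco, 17 Slc22, 7 Slc10, 5 Slc15 and 2 Slc47 genes. Slco6b1, counted among them by its name, is annotated in RefSeq as a long non-coding RNA. A cluster shared by 2 members of the Slco family, Slco1a1 and Slco1a5, was left out, and 8 protein-coding genes of these families are not analysed here, these 2 and among others Slco3a1.

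Microvessels of the retina (RMVs) were set against whole retinal tissue (RT), and microvessels of the brain (BMVs) against whole brain tissue (BT), each group with 6 Affymetrix Rat Gene 2.0 ST arrays of 24 in all. All samples came from male Wistar rats aged 12 weeks, with no treatment or genotype named. Per the methods 6 rats gave eyes and brains, and a microvessel sample and its tissue sample were taken from sections of the same organ, but the labels do not tie an array to a rat. Microvessels were obtained by homogenization, a dextran gradient and a nylon mesh, so that they are a fraction of whole vessels and not a sorted cell type, and per the methods the brains had been freed of meninges with their large vessels, of the choroid plexus and of white matter. Values are log2 signals as deposited, on which a difference of 1 is 2-fold.

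Organic anion transporting polypeptides take up large amphipathic anions without sodium, among them thyroxine, steroid conjugates, bile acids, prostaglandins and many drugs. The Slc22 family holds the multispecific organic anion transporters, the organic cation transporters and the carnitine transporter, and is best known from kidney tubules. At the blood-brain barrier and the inner blood-retinal barrier such carriers sit in the endothelial membrane beside ATP-driven efflux pumps, where they move hormones and nutrients inward and metabolites and drugs outward.

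The microvessel fractions carried the markers of their label. All 8 measured endothelial and all 7 measured mural cell markers were higher in RMVs than in RT and in BMVs than in BT. Both fractions also held RNA of the surrounding tissue, since 7 of 7 photoreceptor markers had a summed log2 signal of 15.3 to 15.6 in RMVs and 15.6 to 15.7 in RT, and 8 of 8 neuronal markers 12.62 to 12.96 in BMVs and 15.1 to 15.2 in BT. In such bulk samples, fewer cells of a type and less RNA per cell cannot be told apart. The median log2 difference of all genes was 0.33 for RMVs minus RT and 0.30 for BMVs minus BT, against which each difference below is to be read. Quantile normalization of the arrays set it to -0.15 in both comparisons, and centring of each array on its median set it to -0.32 and -0.31.

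A level that serves as low signal was taken from 1344 olfactory and vomeronasal receptor genes, as the 95th percentile of their highest group means, which was 6.61. The highest group mean of 22 of the 44 carriers lay above it and that of 22 lay at or below it.

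A gene was called higher or lower when its log2 difference reached 1 (2-fold) with an adjusted p below 0.05 in limma over all 18166 genes. In RMVs, 10 of the 44 carriers were higher than in RT, where 10.3% of all genes were, and 0 were lower, where 0.947% of all genes were. In BMVs, 14 of the 44 were higher than in BT, where 16.3% of all genes were, and 5 were lower, where 10.5% of all genes were. The median log2 difference of the carriers was 0.55 for RMVs minus RT and 0.70 for BMVs minus BT.

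**Figure D1:**
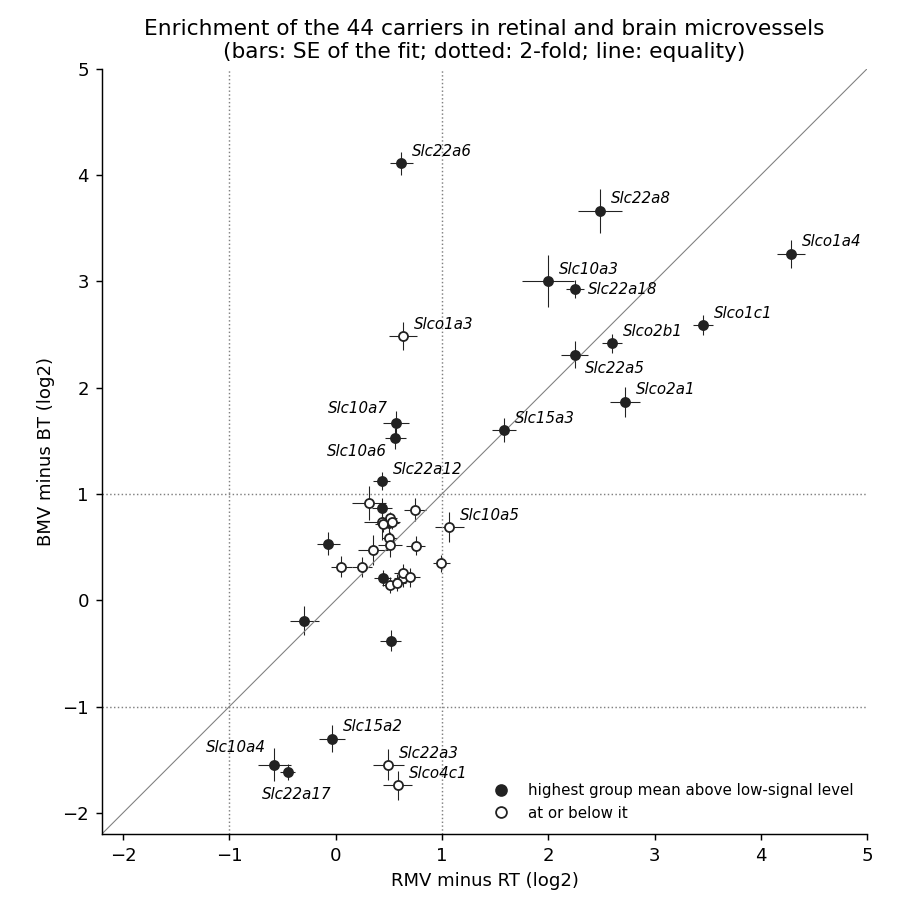
Log2 difference of RMVs minus RT (x axis) and of BMVs minus BT (y axis) for the 44 carriers, with bars for the standard error of the fit, filled points for carriers whose highest group mean lies above the low-signal level, dotted lines at 2-fold and a line of equality. Slco1a4 lies farthest to the right at 4.29 and 3.26, Slc22a6 lies highest at 0.62 and 4.11, and Slc15a2, Slc22a17, Slc10a4, Slc22a3 and Slco4c1 lie below the lower line of the y axis.

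The promoters of Slco1a4, Slco2a1 and Slco2b1, which were higher in both microvessel fractions, and of Slc22a8, which differed between RMVs and BMVs, are shown 5′ to 3′ as RefSeq gives them on the build GRCr8, as 300 bases around the start that the RefSeq table gives, in lower case with motif matches in capitals. For Slco2b1 and Slc22a8 this window lies inside the annotated gene, and for Slco1a4 and Slco2a1 at its 5′ end. The motifs searched on both strands were AGGAAG (the ETS core), CTTTGA (the TCF/LEF core) and GCGTG (the AHR core), and none of them overlaps another within these sequences.
Slco1a4 promoter, chr4:176495797-176496096, minus strand: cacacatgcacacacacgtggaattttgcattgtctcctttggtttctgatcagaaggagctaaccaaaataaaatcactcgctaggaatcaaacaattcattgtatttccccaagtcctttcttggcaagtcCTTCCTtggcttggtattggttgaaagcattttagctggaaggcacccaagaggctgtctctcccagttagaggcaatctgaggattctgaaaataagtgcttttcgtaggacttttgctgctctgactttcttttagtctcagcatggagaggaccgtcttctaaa
Slco2a1 promoter, chr8:112467489-112467788, plus strand: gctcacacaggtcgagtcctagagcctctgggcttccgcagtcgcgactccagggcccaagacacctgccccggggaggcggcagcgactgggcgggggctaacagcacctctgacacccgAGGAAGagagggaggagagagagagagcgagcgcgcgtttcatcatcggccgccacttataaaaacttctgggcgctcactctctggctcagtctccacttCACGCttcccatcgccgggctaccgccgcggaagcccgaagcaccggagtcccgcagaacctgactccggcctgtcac
Slco2b1 promoter, chr1:163408016-163408315, minus strand: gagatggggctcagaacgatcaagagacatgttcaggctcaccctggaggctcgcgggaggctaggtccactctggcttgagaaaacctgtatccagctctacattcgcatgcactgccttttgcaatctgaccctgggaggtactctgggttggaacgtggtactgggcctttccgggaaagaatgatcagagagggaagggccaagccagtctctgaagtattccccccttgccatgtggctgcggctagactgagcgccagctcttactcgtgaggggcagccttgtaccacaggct
Slc22a8 promoter, chr1:214927034-214927333, plus strand: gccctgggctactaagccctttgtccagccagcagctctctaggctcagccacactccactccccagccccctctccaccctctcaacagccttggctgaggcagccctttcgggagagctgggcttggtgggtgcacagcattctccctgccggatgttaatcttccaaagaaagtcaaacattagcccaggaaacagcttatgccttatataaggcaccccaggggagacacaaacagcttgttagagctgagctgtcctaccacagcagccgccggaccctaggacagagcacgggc

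Of the 44 carriers, 37 had a promoter in the RefSeq table. AGGAAG was found in 37.8% of them and in 34.5% of all 33469 promoters of the same length, CTTTGA in 10.8% and 16.1%, and GCGTG in 37.8% and 29.7%. Slco1a4 and Slco2a1 each held a match to the ETS core and Slco2a1 a match to the AHR core, while Slco2b1 and Slc22a8 held none of the 3 motifs in this window. These are matches of letters only.

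Slco1a4 and Slco1c1 had the largest differences of the 44 carriers between RMVs and RT. Slco1c1 encodes the thyroxine carrier of brain capillaries. Its log2 signal lay between 12.30 and 13.01 in RMVs (median 12.87), against 9.16 to 9.59 in RT (median 9.30), and between 13.32 and 13.49 in BMVs (median 13.43), against 10.74 to 10.93 in BT (median 10.82). Every microvessel array lay above every tissue array of its organ. The log2 difference was 3.46 ± 0.09 in retina and 2.59 ± 0.09 in brain (SE of the fit, n = 6 arrays per group; limma adjusted p = 2.2e-21 and 1.8e-19), or 10.98-fold and 6.02-fold.

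Slco1a4 encodes a carrier of bile acids, steroid conjugates and cardiac glycosides on the endothelial membrane. Its signal lay between 10.98 and 11.74 in RMVs (median 11.41), against 6.75 to 7.62 in RT (median 7.03). In BMVs it lay between 11.99 and 12.16 (median 12.10), against 8.48 to 9.13 in BT (median 8.84). The groups did not overlap in either organ, and the difference of 4.29 ± 0.13 in retina (19.5-fold) exceeded that of 3.26 ± 0.13 in brain (9.58-fold). The difference between both enrichments was 1.03 ± 0.18 (adjusted p = 3.1e-05), with RT below BT by 1.70 ± 0.13 and RMVs below BMVs by 0.67 ± 0.13 on the log2 scale. The call of this difference rests on a value close to the threshold, as it was 0.95 to 0.99 without any of RMV replicates 4 and 6, RT replicates 2 and 3 or BT replicate 6 and 0.99 with centred arrays, all short of 2-fold. For Slco1c1 the difference between enrichments was 0.87 ± 0.13, which is short of 2-fold, with an adjusted p of 2.2e-06.

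Slco2b1 and Slco2a1 followed. Slco2b1, a carrier of steroid sulfates, had a signal of 9.14 to 9.63 in RMVs (median 9.48) and 6.56 to 7.06 in RT (median 6.88). It had 10.50 to 10.68 in BMVs (median 10.56) and 7.99 to 8.48 in BT (median 8.09). It was 6.05-fold higher in RMVs than in RT and 5.33-fold higher in BMVs than in BT (adjusted p = 7.6e-19 and 7.7e-19), and the groups did not overlap. Slco2a1, the prostaglandin transporter, had 7.77 to 8.47 in RMVs (median 8.28) and 5.26 to 5.86 in RT (median 5.39). In BMVs it had 7.36 to 8.05 (median 7.72), against 5.64 to 6.29 in BT (median 5.83). It was 6.59-fold higher in RMVs (adjusted p = 3.4e-15) and 3.65-fold higher in BMVs (adjusted p = 2.7e-12) than in the tissue. The means of RT (5.49) and BT (5.88) lay below the low-signal level, so that both folds are set against low signal. The difference between enrichments was 0.85 ± 0.20 and passed 2-fold with quantile-normalized arrays, at 1.06.

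Genes of related handling did not all move with these carriers. Of 9 measured genes of thyroid hormone supply and response, 0 were higher in RMVs and 1 was lower, Dio1, a deiodinase of thyroxine, at -1.01 ± 0.10, and none passed in BMVs. Their median log2 difference was 0.05 in retina and -0.02 in brain, below that of all genes. Of 18 genes of prostaglandin synthesis, breakdown and receptors, 3 were higher in RMVs than in RT, which were Ptgis (prostacyclin synthase, 3.42 ± 0.11), Ptgs2 (an inducible cyclooxygenase, 1.59 ± 0.16) and Ptgir (the prostacyclin receptor, 1.30 ± 0.14). In BMVs 9 of 18 were higher than in BT, with Ptgis at 4.33 ± 0.11, Ptgr1 (prostaglandin reductase) at 2.62 ± 0.15 and Ptgds (a prostaglandin D synthase) at 2.36 ± 0.14. Efflux pumps that share substrates with the carriers were higher for 5 of 9 in RMVs and 6 of 9 in BMVs, among them Abcb1a (P-glycoprotein) at 4.10 ± 0.12 and 4.28 ± 0.12 and Abcg2 at 4.43 ± 0.24 and 4.20 ± 0.24.

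**Figure D2:**
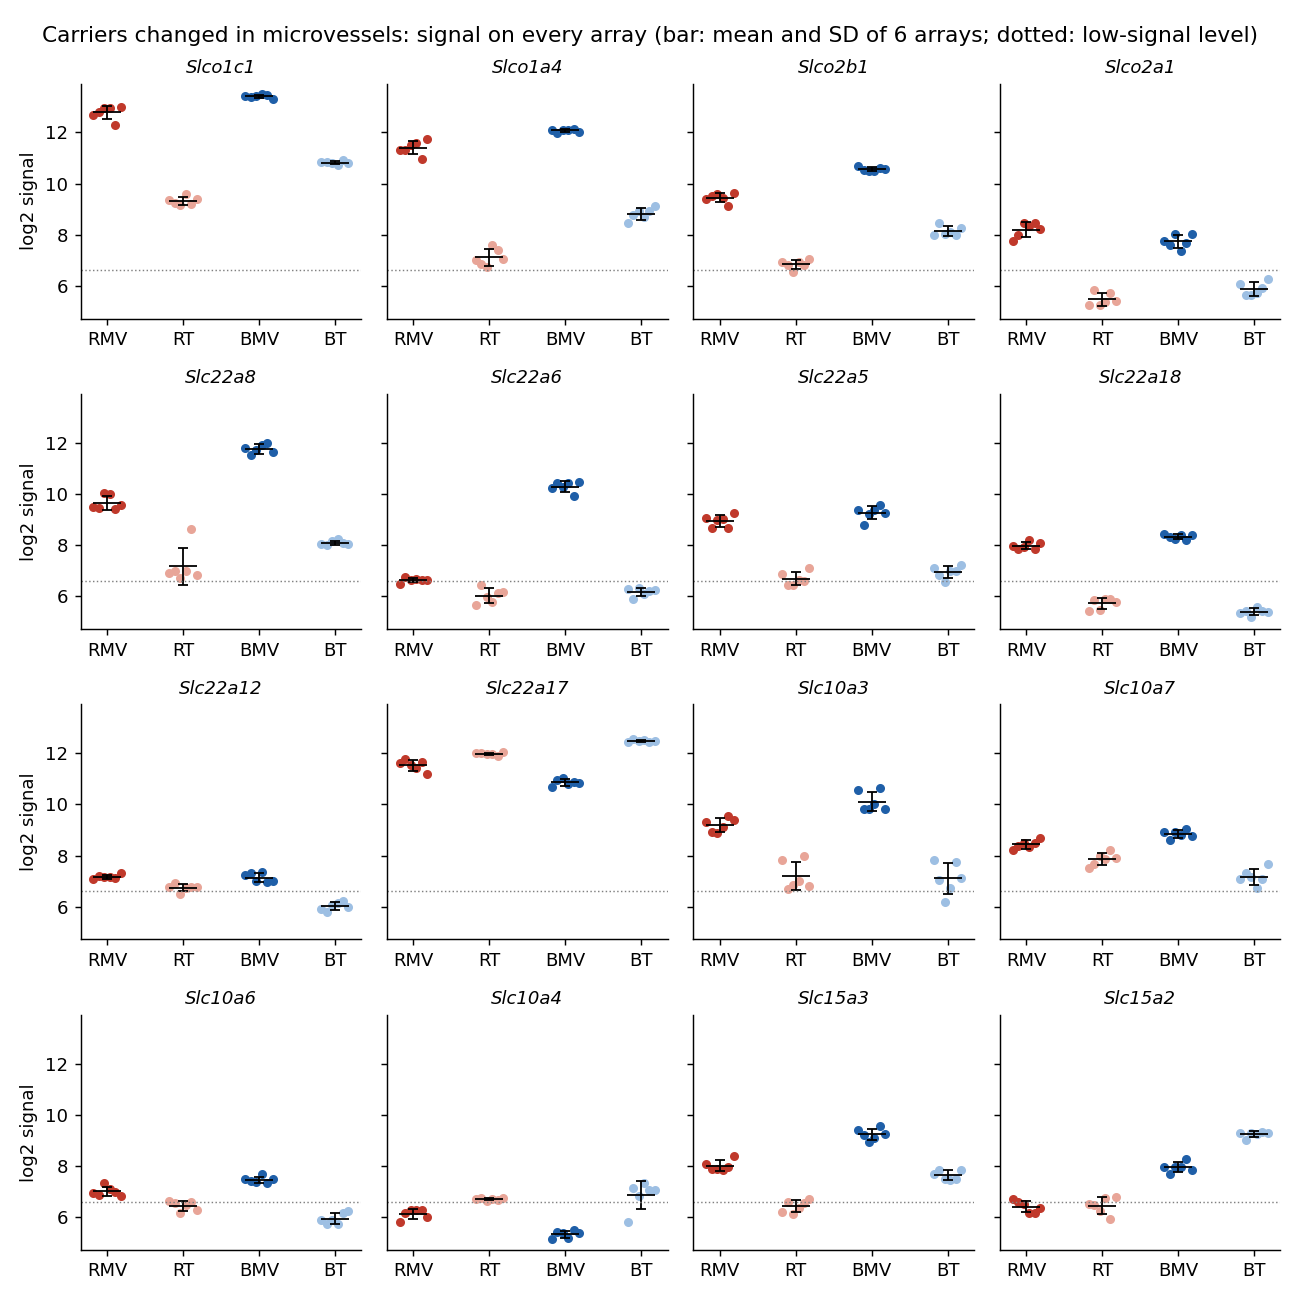
Log2 signal of 16 carriers on every array, with groups in the order RMV, RT, BMV and BT, and a bar for the mean and SD of 6 arrays. The dotted line marks the low-signal level of 6.61; Slc22a6 lies above 9.9 in BMVs and at 6.74 or below in the other groups, and Slc15a2 is higher in BT than in BMVs.

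Of the 44 carriers, 2 organic anion transporters of the Slc22 family lay farthest below BMVs in RMVs. Slc22a8 (Oat3) and Slc22a6 (Oat1) exchange organic anions for dicarboxylates and are known from the kidney, and their genes neighbour each other in the RefSeq annotation, where the low-signal carrier Slc22a25 overlaps both. Slc22a6 lay between 9.91 and 10.45 in BMVs (median 10.35), against 5.88 to 6.33 in BT (median 6.24), without overlap. In RMVs it lay between 6.50 and 6.74 (median 6.65), against 5.67 to 6.45 in RT (median 6.06). The BMV difference was 4.11 ± 0.11 or 17.3-fold (adjusted p = 5.8e-22), whereas RMVs differed from RT by 0.62 ± 0.11, short of 2-fold, and by -0.02 with quantile-normalized or centred arrays. RMVs lay below BMVs by 3.64 ± 0.11 on the log2 scale (12.5-fold, adjusted p = 1.3e-20), and the difference between enrichments was -3.49 ± 0.15 (adjusted p = 4.0e-16). In RT and BT the gene differed by -0.15 ± 0.11 (adjusted p = 0.22). The means of RT (6.03) and BT (6.18) lay below the low-signal level and that of RMVs (6.65) just above it, so that these folds and differences are set against low signal.

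Slc22a8 was higher in both fractions. Its signal lay between 9.42 and 10.03 in RMVs (median 9.53), against 6.72 to 8.62 in RT (median 6.96). It lay between 11.51 and 11.999 in BMVs (median 11.75), against 7.996 to 8.25 in BT (median 8.06). No array of RT reached one of RMVs, but RT replicate 5 stood apart at 8.62, with the next RT array at 6.99. The differences were 2.48 ± 0.21 in RMVs (5.60-fold, adjusted p = 5.0e-11) and 3.66 ± 0.21 in BMVs (12.7-fold, adjusted p = 4.6e-15). Without RT replicate 5 the RMV difference was 2.77 ± 0.11 (adjusted p = 2.0e-17). RMVs lay below BMVs by 2.09 ± 0.21 on the log2 scale (adjusted p = 1.5e-09).

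RT replicate 5 was also the highest RT array for pigment epithelium markers. The summed log2 signal of the 9 markers was 12.68 there, 11.25 in RT replicate 6 and 10.16 to 10.55 in the other 4 RT arrays, and 11.47 in RMV replicate 5, with 10.07 to 10.54 in the other RMV arrays. Rpe65, the retinoid isomerase of the pigment epithelium, was at 9.57 in RT replicate 5 and at 6.46 to 7.37 in the others, and Ttr, a transthyretin gene used as a choroid plexus marker, at 11.71 and at 8.50 to 10.08. Other markers of both lists were not raised there. Of the pigment epithelium markers, Tyr (3.13) had its lowest RT value on that array. Best1 was at 5.83 there and at 5.78 to 6.06 in the others, and Mitf (7.80) lay below RT replicate 1 (7.86). Of the choroid plexus markers, Kcne2 was at 8.65 there and at 8.48 to 8.86 in the others. RT replicate 5 was also the highest RT array for the summed signal of the fibroblast markers, at 10.14 against 9.57 to 9.78 in the other RT arrays. Of these markers Slc6a13 was at 8.16 there and at 5.91 to 6.34 in the others, and Ogn at 8.06 and at 6.82 to 7.54. Not all fibroblast markers moved so, since Dcn (4.10) and Foxc1 (4.83) had their lowest RT value on that array. The part of such cells in the Slc22a8 value was not tested. Without that array, the RT-BT difference was -1.20 ± 0.11 in place of -0.91 ± 0.21 and became past 2-fold (adjusted p = 2.1e-10), and the difference between enrichments was -0.89 ± 0.15 in place of -1.18 ± 0.29 and no longer past 2-fold (adjusted p = 1.2e-05).

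**Figure D3:**
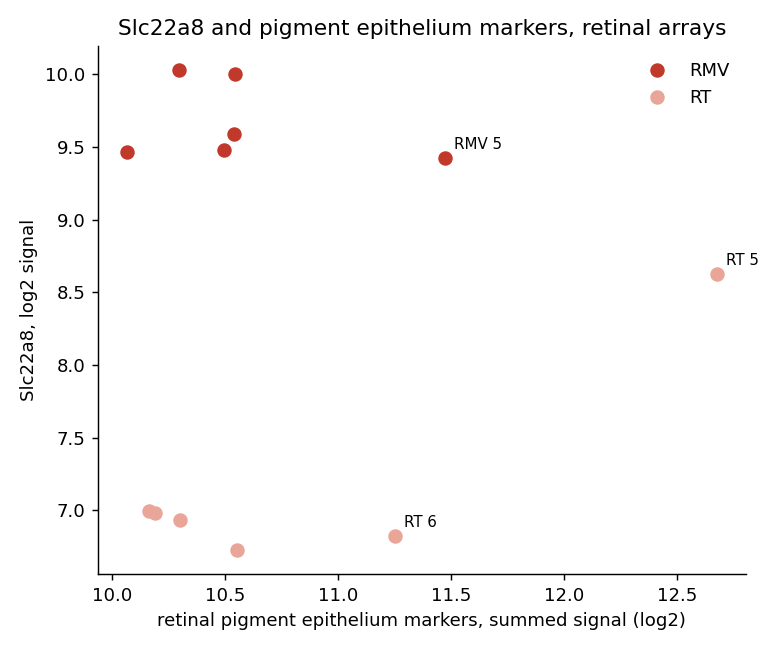
Log2 signal of Slc22a8 (y axis) against the summed log2 signal of the 9 pigment epithelium markers (x axis) on the 6 RMV and 6 RT arrays. RT replicate 5 stands at 12.68 and 8.62, while RT replicate 6, at 11.25, has a Slc22a8 signal of 6.82.

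Markers of perivascular and meningeal fibroblasts moved along with the brain values. All 12 were higher in BMVs than in BT and 7 of 12 in RMVs than in RT, and 10 of 12 were lower in RMVs than in BMVs. Their summed log2 signal was 11.28 to 11.73 in RMVs and 9.57 to 10.14 in RT, and 14.07 to 14.36 in BMVs and 10.70 to 11.02 in BT. At or below the low-signal level were 5 of 12 in RMVs, 10 in RT, 1 in BMVs and 5 in BT. Choroid plexus markers were higher in BMVs than in BT for 2 of 10, Kl at 3.00 and Kcnj13 at 2.05. The part of these cells in the Slc22a6 and Slc22a8 values was not tested.

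Slc22a5 and Slc22a18 were higher in both fractions. Slc22a5 (Octn2), the sodium-dependent carnitine transporter, lay between 8.66 and 9.24 in RMVs (median 9.004), against 6.45 to 7.12 in RT (median 6.63). In BMVs it lay between 8.80 and 9.56 (median 9.33), against 6.58 to 7.23 in BT (median 6.99). The differences were 2.25 ± 0.13 and 2.31 ± 0.13, with a difference between enrichments of -0.06 ± 0.19 (adjusted p = 0.78). Of 16 genes of carnitine synthesis and use, 1 was higher in RMVs, Acadl (a long-chain acyl-CoA dehydrogenase, 1.54 ± 0.08). In BMVs 4 were higher, with Acadm (medium-chain acyl-CoA dehydrogenase) at 1.85 ± 0.15 and Cpt1a (carnitine palmitoyltransferase) at 1.52 ± 0.07, and 1 was lower, the neuronal isoform Cpt1c at -1.49 ± 0.08.

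Slc22a18, an imprinted gene of the family whose substrates are not settled, lay between 7.85 and 8.19 in RMVs (median 7.95), against 5.45 to 5.91 in RT (median 5.83). In BMVs it lay between 8.20 and 8.44 (median 8.35), against 5.20 to 5.60 in BT (median 5.41). No microvessel array overlapped a tissue array, and both tissue groups lay below the low-signal level. The differences were 4.77-fold in RMVs (adjusted p = 5.0e-18) and 7.60-fold in BMVs (adjusted p = 4.8e-21), and the difference between enrichments was -0.67 ± 0.12, short of 2-fold. The urate transporter of kidney tubules, Slc22a12 (Urat1), differed by 0.43 ± 0.08 in RMVs and 1.12 ± 0.08 in BMVs, and with quantile-normalized arrays by -0.18 in RMVs and 0.52 in BMVs, where the call was lost. Its BT mean (6.02) lay below the low-signal level.

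Slc22a17, a receptor for lipocalin 2 that is abundant in neurons, was lower in BMVs than in BT. It lay between 10.69 and 11.03 in BMVs (median 10.85), against 12.43 to 12.55 in BT (median 12.46), and between 11.18 and 11.76 in RMVs (median 11.58), against 11.89 to 12.03 in RT (median 11.99). BMVs were lower than BT by 1.62 ± 0.08 (adjusted p = 6.7e-17), and RMVs differed from RT by -0.45 ± 0.08, short of 2-fold. The difference between enrichments was 1.17 ± 0.11. Neuronal markers had a like order, with 8 of 8 lower in BMVs and 3 of 8 lower in RMVs than in the tissue, at a summed signal of 13.75 to 14.14 in RMVs and 14.63 to 14.71 in RT. Their part in the Slc22a17 and Slc10a4 values was not tested. Slc10a4, a vesicular carrier of cholinergic and monoaminergic neurons, lay between 5.15 and 5.49 in BMVs (median 5.37), against 5.82 to 7.34 in BT (median 7.06), and was lower by 1.54 ± 0.16 (adjusted p = 9.1e-10), with BMVs under the low-signal level. In RMVs it lay between 5.82 and 6.29 (median 6.22), against 6.63 to 6.76 in RT (median 6.72), with RMVs under that level too. This RMV difference was -0.58 ± 0.16 as deposited and passed 2-fold at -1.26 with quantile-normalized and -1.22 with centred arrays.

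In the Slc10 family, Slc10a3, an orphan relative of the bile acid carriers, was higher in both fractions. It lay between 8.89 and 9.54 in RMVs (median 9.21), against 6.70 to 7.97 in RT (median 6.93). In BMVs it lay between 9.80 and 10.64 (median 9.93), against 6.20 to 7.81 in BT (median 7.09). The differences were 2.00 ± 0.24 and 3.00 ± 0.24, with no overlap between microvessels and tissue. The difference between enrichments was -1.003 ± 0.35 (adjusted p = 0.015), and with quantile-normalized arrays it was -0.90, short of 2-fold. The spread within groups followed the replicate number of the labels. Replicates 1 and 5 were at 9.31 and 9.54 in RMVs, 7.82 and 7.97 in RT, 10.56 and 10.64 in BMVs and 7.81 and 7.75 in BT, and they were the 2 highest arrays of RT, BMVs and BT, whereas in RMVs replicate 6 was at 9.38. In a limma fit with the replicate number as a term, chosen after these values were seen, Slc10a3 had an adjusted p of 0.0051 for any difference among the 6 numbers, and 0.193% of all genes (35 of 18166) and 1 of 44 carriers passed. With that term the standard error of both enrichments was 0.13 in place of 0.24. The labels do not say that a number marks a rat.

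**Figure D4:**
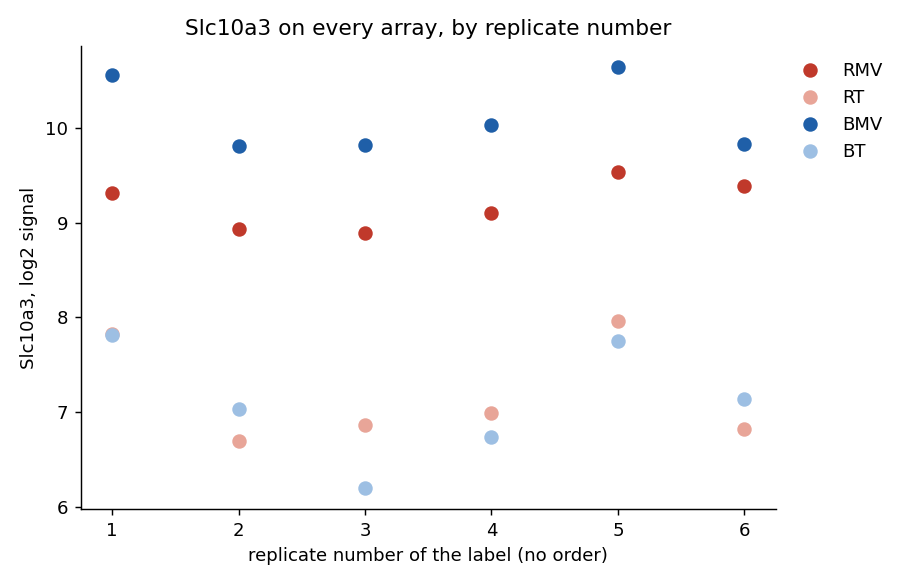
Log2 signal of Slc10a3 (y axis) by the replicate number of the label (x axis, no order) in RMVs, RT, BMVs and BT. Replicates 1 and 5 are the 2 highest in RT, BMVs and BT, at 7.75 to 10.64.

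Slc10a7 and Slc10a6 were called higher in BMVs and not in RMVs. Slc10a7, a regulator of calcium entry, lay between 8.59 and 9.03 in BMVs (median 8.85), against 6.73 to 7.66 in BT (median 7.13), a difference of 1.66 ± 0.12, and it differed by 0.57 ± 0.12 in RMVs, which turned to -0.07 with centred arrays. The difference between enrichments was -1.09 ± 0.17 (adjusted p = 4.5e-06). Slc10a6, a carrier of sulfated steroids, differed by 1.52 ± 0.10 in BMVs and 0.56 ± 0.10 in RMVs, and these values were 0.92 and -0.07 with quantile-normalized arrays. Its means in RT (6.44) and BT (5.94) lay below the low-signal level. Slc10a5 passed in RMVs at 1.07 ± 0.14, with a highest mean of 6.40 at low signal, and fell short at 0.45 with quantile-normalized arrays. Of 13 sensors of bile acids and foreign compounds, 2 were higher in RMVs, Vdr (1.23 ± 0.12) and Nfe2l2 (1.15 ± 0.09), and 5 in BMVs, with Vdr at 2.38 ± 0.12.

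Of the peptide carriers, Slc15a3 was higher and Slc15a2 lower in BMVs than in BT. Slc15a3 (Pht2), a histidine and peptide carrier of endosomes, lay between 7.86 and 8.40 in RMVs (median 7.92), against 6.14 to 6.71 in RT (median 6.47), and between 8.93 and 9.54 in BMVs (median 9.24), against 7.45 to 7.86 in BT (median 7.61). The differences were 1.58 ± 0.11 and 1.60 ± 0.11, and both fell short of 2-fold with centred arrays, at 0.94 and 0.99. The RT mean (6.43) lay below the low-signal level, so that differences from RT are set against low signal. Retina was lower than brain in both, by 1.23 ± 0.11 in microvessels and 1.21 ± 0.11 in tissue. Of 7 genes of endosomal peptide and nucleic acid sensing, 1 was higher in RMVs, Nod1 (a sensor of bacterial peptides) at 1.52 ± 0.11, and 4 in BMVs, with Nod1 at 2.12 ± 0.11 and Unc93b1 at 1.61 ± 0.08. Of 12 markers of microglia and perivascular macrophages, 1 was higher and 0 were lower in RMVs than in RT. In BMVs 5 were higher and 1 was lower than in BT, at -1.15. Of the 12, 9 were lower in RMVs than in BMVs. The summed signal of the 12 was 10.59 to 10.79 in RMVs, 10.46 to 10.82 in RT, 12.61 to 12.85 in BMVs and 12.003 to 12.23 in BT. The part of these cells in the Slc15a3 and Slco2b1 values was not tested.

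Slc15a2 (Pept2), which takes up di- and tripeptides and is known from astrocytes and choroid plexus, lay between 7.69 and 8.27 in BMVs (median 7.97), against 9.03 to 9.34 in BT (median 9.30). It lay between 6.15 and 6.69 in RMVs (median 6.44), against 5.94 to 6.79 in RT (median 6.50). The means of RMVs (6.42) and RT (6.45) lay below the low-signal level, so that differences from these groups are set against low signal. BMVs were lower than BT by 1.30 ± 0.12, RMVs and RT overlapped and differed by -0.03 ± 0.12 (adjusted p = 0.81), and RT lay below BT by 2.80 ± 0.12 (6.98-fold). With quantile-normalized arrays RMVs minus RT was -0.70 (adjusted p = 3.3e-05). The difference between enrichments was 1.27 ± 0.17 (adjusted p = 5.6e-07) and fell short of 2-fold with quantile-normalized arrays, at 0.68. Astrocyte and Müller glia markers were lower for 3 of 6 in both fractions, at a summed signal of 11.95 to 12.37 in RMVs, 13.12 to 13.30 in RT, 13.11 to 13.44 in BMVs and 14.15 to 14.26 in BT. Their part in the Slc15a2 value was not tested.

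Between retina and brain, 2 of the 44 carriers were higher in RMVs than in BMVs, where 5.72% of all genes were, and 6 were lower, where 5.25% were. The 6 were Slc22a6, Slc22a8, Slco1a3, Slc15a2, Slc15a3 and Slco2b1, the last by 1.12 ± 0.09 (adjusted p = 4.2e-11). In tissue, 2 were higher in RT than in BT, where 6.29% of all genes were, and 8 were lower, where 11.1% were. The 8 were Slc15a2, Slco4c1, Slco1a4, Slco1c1, Slc22a23, Slco2b1, Slc22a3 and Slc15a3, at log2 differences between -2.80 and -1.21. For the difference between enrichments, 5 carriers passed in the direction of retina, where 10.4% of all genes did, and 5 in that of brain, where 5.15% did. Without RT replicate 5 the count in the direction of brain was 3, as Slc22a8 (-0.89) and Slc10a3 (-0.85) fell short of 2-fold. These comparisons share arrays with those above.

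The 2 carriers higher in retina were Slco4a1 and Slco5a1, and both were so in tissue too. Slco4a1, a thyroid hormone and taurocholate carrier, lay between 8.87 and 9.20 in RMVs (median 8.97) and 8.88 to 9.28 in RT (median 9.05), against 6.04 to 6.73 in BMVs (median 6.65) and 5.78 to 6.37 in BT (median 5.96). RMVs were higher than BMVs by 2.45 ± 0.11 and RT higher than BT by 3.06 ± 0.11, while RMVs and RT overlapped and differed by -0.07 ± 0.11. Slco5a1, an orphan, lay between 6.35 and 6.99 in RMVs (median 6.77) and 4.90 to 5.16 in BMVs (median 4.98), a difference of 1.73 ± 0.14. For Slco4a1 the means of BMVs (6.54) and BT (6.01) and for Slco5a1 those of BMVs (4.99) and BT (5.18) lay below the low-signal level, so that these differences are set against low signal. All 7 photoreceptor markers were at or below the low-signal level in BMVs and BT, and 7 of 7 were higher in RMVs than in BMVs. Their part in these values was not tested.

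**Figure D5:**
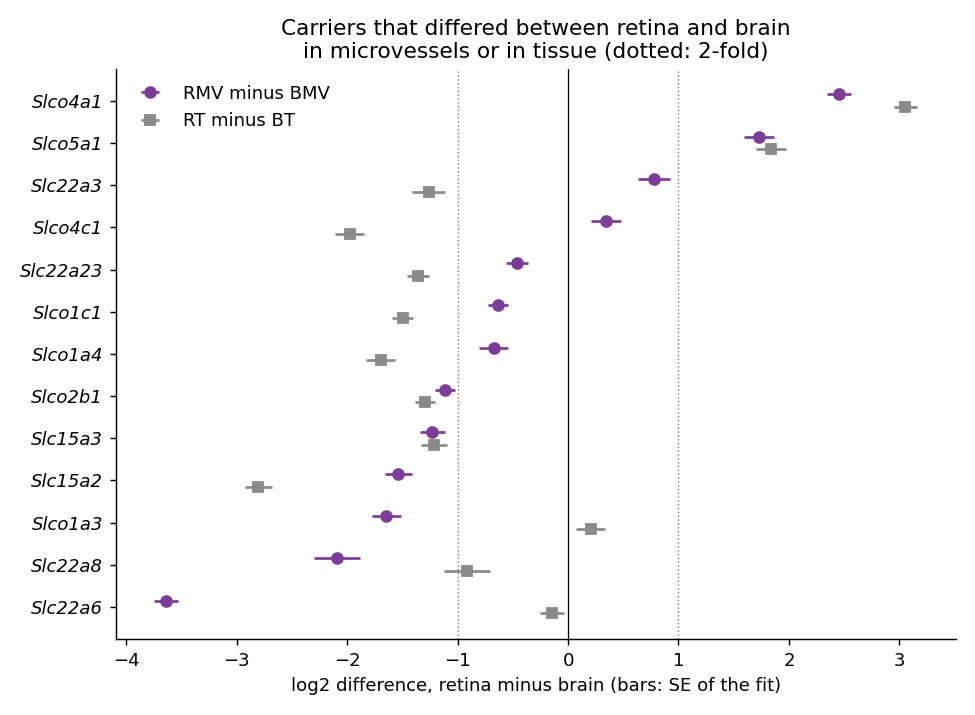
Log2 difference of retina minus brain for the 13 carriers called in microvessels (RMV minus BMV, circles) or in tissue (RT minus BT, squares), with bars for the standard error of the fit. Slc22a6 lies at -3.64 in microvessels and -0.15 in tissue, and Slco4a1 at 2.45 and 3.06.

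In the difference between enrichments, Slc22a3 and Slco4c1 had the largest values in the direction of retina, at 2.04 ± 0.21 and 2.32 ± 0.19, but the highest group means of 5.81 and 6.29 lay at low signal. Slc22a3 is an organic cation transporter, and it lay between 3.85 and 4.41 in BMVs, against 5.14 to 6.35 in BT. Slco4c1 is a carrier of kidney, and it lay between 4.18 and 4.79 in BMVs, against 5.95 to 6.78 in BT. Slco1a3, whose gene lies near that of Slco1a4 on chromosome 4, lay between 5.18 and 6.31 in BMVs and 3.02 to 3.24 in BT (2.48 ± 0.13), against a difference of 0.63 ± 0.13 in RMVs. Its highest group mean of 5.58 lay at low signal. The share of signal from related family members on the Slco1a3 probes is uncertain. Of 9 genes of amine uptake and breakdown, Maob and Maoa, the monoamine oxidases, were higher in RMVs at 2.80 ± 0.12 and 2.25 ± 0.10 and in BMVs at 1.15 ± 0.12 and 1.95 ± 0.10. Of the 9, 1 was lower in RMVs and 2 were lower in BMVs. Slc29a4, another organic cation carrier, was lower in both, by 1.08 ± 0.11 and 1.45 ± 0.11, and the lowest value of the list in BMVs was -1.98.

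The other carriers gave smaller differences. Slc15a4, Slc22a15, Slc22a20 and Slc22a23 lay above the low-signal level and were not called in the vessel comparisons, with Slc22a23 lower in RT than in BT by 1.36 ± 0.10. The remaining 18 carriers, among them both Slc47 genes, the liver carriers Slc10a1 and Slco1b2, the intestinal carriers Slc10a2 and Slc15a1 and the testis genes Slco6b1, Slco6c1 and Slco6d1, lay at low signal in every group and were called in no comparison. Slco6c1 was closest to the threshold in RMVs at 0.99 ± 0.08. The median level of the receptor genes was itself 4.36 in RMVs and 3.88 in RT, and 4.14 in BMVs and 3.65 in BT, so that these genes too were higher in microvessels.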

How the data were processed

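The authors extracted total RNA (integrity number over 8 per the methods), labelled it with the WT Pico kit, hybridized it to Affymetrix Rat Gene 2.0 ST arrays, normalized the arrays in Affymetrix Expression Console 4.0 and deposited the values on a log2 scale. Which normalization method and which annotation they used is not given in the sources used here. The number of arrays limits the precision, and p-values measure the spread between 6 samples per group. Groups were taken from the labels.

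Values were used as deposited. Of 36685 transcript clusters, 18511 had a single symbol, 18394 of them updated by Entrez identifier. For a gene with several clusters the one with the highest mean was kept. limma 3.58.1 in R 4.3.3 fitted all 24 arrays and 4 groups without a block, two-sided, with Benjamini-Hochberg adjustment over 18166 genes. The fit was tested on simulated data. Members and lists were chosen with earlier results of these data known. Values of every group are given for members past both thresholds against their tissue and above the low-signal level. Replicate numbers were not used as pairs, since the labels do not tie a number to a rat. Alternatives were quantile normalization, array-median centring, the mean of clusters, a filter at the first quartile, the compared groups alone, a trend prior, limma's treat, a replicate block and leaving out each array.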

Additional observations from a re-analysis of the deposited data

Results flagged for a closer look

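In 64 groups of 6 arrays, 5 held an array that lay far from the others, where chance gives about 1 in 20. These were Slc22a8 in RT replicate 5 (8.62, nearest 6.99), Slc10a4 in BT replicate 1 (5.82, nearest 6.84), Slc15a2 in BT replicate 2 (9.03, nearest 9.24), Slc22a6 in RMV replicate 1 (6.50, nearest 6.65) and Slc22a6 in BMV replicate 5 (9.91, nearest 10.25). Without RT replicate 5 the Slc22a8 difference between enrichments was -0.89.

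Enrichment in microvessels differed between retina and brain, as the limma test of the difference itself, for 10 carriers. The difference was positive for Slco4c1 (2.32), Slc22a3 (2.04), Slc15a2 (1.27), Slc22a17 (1.17) and Slco1a4 (1.03), of which Slco4c1 and Slc22a3 lie at low signal. For Slc15a2 the RMV and RT means lay below the low-signal level. Only Slco1a4 among these carriers was called higher in RMVs than in RT. Slco4c1 (-1.74), Slc22a3 (-1.55), Slc15a2 (-1.30) and Slc22a17 (-1.62) were called lower in BMVs than in BT and were not called in RMVs. The enrichment was smaller in retina for Slc22a6 (-3.49), Slco1a3 (-1.85, low signal), Slc22a8 (-1.18), Slc10a7 (-1.09) and Slc10a3 (-1.003). With quantile-normalized arrays the values of Slc15a2 (0.68) and Slc10a3 (-0.90) fell short of 2-fold, as did that of Slco1a4 with centred arrays (0.99).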

How the results depend on the processing

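The counts of carriers higher in RMVs than in RT (9 and 8) and in BMVs than in BT (12 and 11) held within 1.5 times under quantile normalization and centring, and all of the carriers so called were also called on the deposited values. Among all genes, the calls that were higher made up 91.6% in RMVs against RT and 60.9% in BMVs against BT, but 50.4% and 42.4% after quantile normalization and 26.2% and 26.5% after centring. For RMVs against BMVs the share was 52.2%, 40.7% and 26.6%, and for RT against BT 36.1%, 35.3% and 20.5%.

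Carriers lower in RMVs than in RT numbered 0 as deposited, 1 after quantile normalization (Slc10a4) and 2 after centring (Slc10a4 at -1.22 and Slc22a17 at -1.10). Without genes below the first quartile, 3 carriers were lower in BMVs and 3 passed with a positive difference between enrichments, by construction as low-signal carriers were left out. With limma's treat 2 passed with a positive and 2 with a negative difference between enrichments. Leaving out each array gave 4 to 6 with a positive and 3 to 6 with a negative one.

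Directions turned after quantile normalization for RMVs minus RT of Slc10a6 (-0.075), Slc22a12 (-0.18) and Slc22a6 (-0.022), for RMVs minus BMVs of Slc22a12 (-0.21) and for the difference between enrichments of Slc22a5 (0.042). After centring they turned for Slc10a6 (-0.082), Slc10a7 (-0.072), Slc22a12 (-0.21) and Slc22a6 (-0.025) in RMVs minus RT, Slc22a12 (-0.26) in RMVs minus BMVs and Slc10a3 (-0.18) in RT minus BT. Centring moves all genes of a comparison by the same amount, so that only differences smaller than this amount turned. For RMVs minus RT it took the median of all genes from 0.33 to -0.32. Why the array medians differed between groups was not tested. Leaving out each array moved the difference between enrichments of Slc15a3 between -0.093 and 0.045 and of Slc22a5 between -0.16 and 0.022, RMVs minus RT of Slc15a2 between -0.13 and 0.034, RT minus BT of Slc10a3 between -0.099 and 0.22 and RMVs minus BMVs of Slc22a12 between -0.0025 and 0.079. The call of the Slc10a3 difference between enrichments was lost without any of RMV replicates 2, 3 and 4, RT replicates 1 and 5, BMV replicates 1 and 5 or BT replicates 2, 3 and 4 (-0.82 without BT replicate 3). With the replicate block, the counts of 10 and 14 carriers higher in RMVs and BMVs and every named call were unchanged. Deviations of same-numbered arrays correlated by 0.036 to 0.15 between RMVs and RT, where 5 of 6 RMV arrays correlated best with the RT array of their own number, a hint from the data and not from the design. Over all pairs of groups the same-number correlations lay between -0.085 and 0.15. Signal near that of the receptor genes limits the values of 22 of the 44 carriers.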
